A study of Homo sapiens with 15 samples.

Results

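The genes described here were the Wnt receptors FZD1 to FZD8 of the Frizzled family and their co-receptors LRP5 and LRP6, measured on microarrays of the human ovarian cancer cell line SKOV3ip1. Every probe set whose annotation carried a single gene symbol, and that symbol was one of these, was taken on all 15 arrays. This gave 21 probe sets for 9 of the 10 genes, out of 54675 probe sets and 19775 genes with a symbol on the array. FZD8 has no value here, because its probe sets carried a microRNA symbol as well. The family was chosen on its levels in these data, because FZD6 and FZD7 differed most between the extracts labelled MTF+MORAb0003 and 5-MTF+003. Values of FZD6 and FZD7 in any comparison with those extracts are therefore a description without a test, and so are all values of the family between those extracts.

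Wnt proteins are secreted ligands that bind Frizzled receptors at the cell surface. When a Wnt also engages LRP5 or LRP6, the complex that degrades β-catenin is held back, and β-catenin enters the nucleus to switch on target genes with TCF/LEF factors. Frizzled receptors also signal without LRP5, LRP6 or β-catenin, as in planar cell polarity, and the ubiquitin ligases ZNRF3 and RNF43 remove Frizzled receptors from the surface unless R-spondins bind LGR receptors.

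SKOV3ip1 is an epithelial ovarian carcinoma line derived from SKOV3 and carries folate receptor alpha, encoded by FOLR1, the target of the antibody MORAb-003. The MTF+MORAb0003 cells were kept for 7 days in physiological folic acid (2 to 10 nM, which the labels spell nm) and given MORAb003 antibody for 24 hours. The 5-MTF+003 cells had folic acid for 7 days and an antibody called 003 for 24 hours, and whether 003 is MORAb003 under a shorter name is not stated in the labels. The no MTF cells were kept for 7 days without folate. The 5-MTF+004 cells had folic acid for 7 days and the control antibody 004 for 24 hours, and the 5-MTF cells had folic acid for 7 days and no antibody. Each condition was 1 culture with 1 RNA extract, which was divided into 3 aliquots for Affymetrix U133 Plus 2.0 arrays. The spread between arrays is therefore technical, p-values compare RNA extracts, and condition and culture cannot be told apart.

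Levels are log2 expression as deposited, ran from 4.00 to 15.5 over all probe sets, and are compared only within a probe set. A gene was tested if its mean in at least 1 extract reached log2 6.60, the median of all probe sets, and was represented by its brightest probe set. Of the 9 receptor genes, 8 were tested among 14369 genes, each of the 8 lay above that level in all 5 extracts, and FZD1 lay below it in every extract. A gene was called changed at a Benjamini-Hochberg adjusted p under 0.05 over all genes tested in limma, provided that the extracts also differed 1.5-fold or more (0.585 on the log2 scale). Arrays of an extract correlated at 0.993 to 0.998, except 5-MTF+004 replicate 1, whose correlation with its own extract was at most 0.950, so results are given with it (15 arrays) and without it (14 arrays). The array enters the error shared by all comparisons: for LRP6 between MTF+MORAb0003 and 5-MTF, for example, the SE was 0.24 with it and 0.09 without it. All 12 epithelial and ovarian cancer markers examined were at or above the filter level, with a summed level of 16.3 to 16.4 in MTF+MORAb0003 arrays and 15.7 to 16.2 in the others, while 6 of 8 fibroblast and endothelial markers reached that level and the list summed to 10.5 to 10.9, 2 of 5 leukocyte markers reached the filter level and the list summed to 8.70 to 9.06, and 2 of 3 mesothelial markers did with sums of 7.95 to 8.41.

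FZD6 and FZD7 were highest in the MTF+MORAb0003 extract and lowest in the 5-MTF+003 extract. On the brightest probe set of each gene the distance between these extracts exceeded 10-fold. The second FZD7 probe set differed by 2.72 log2 units between them. The extract of cells grown without folate had a lower level of FZD6 and of the brighter FZD5 probe set than the 5-MTF extract, and the brightest LRP6 probe set was higher in the MTF+MORAb0003 extract than in either the 5-MTF+004 or the 5-MTF extract. The other FZD5 and LRP6 probe sets did not show these differences. Against 5-MTF, the calls were kept in 5 (FZD6), 3 (FZD5) and 3 (LRP6) of the 15 fits that left out 1 array each. FZD4, FZD2 and LRP5 were called changed in none of the comparisons tested. Less RNA per cell and fewer cells with the RNA cannot be told apart in such bulk extracts.

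**Figure D1:**
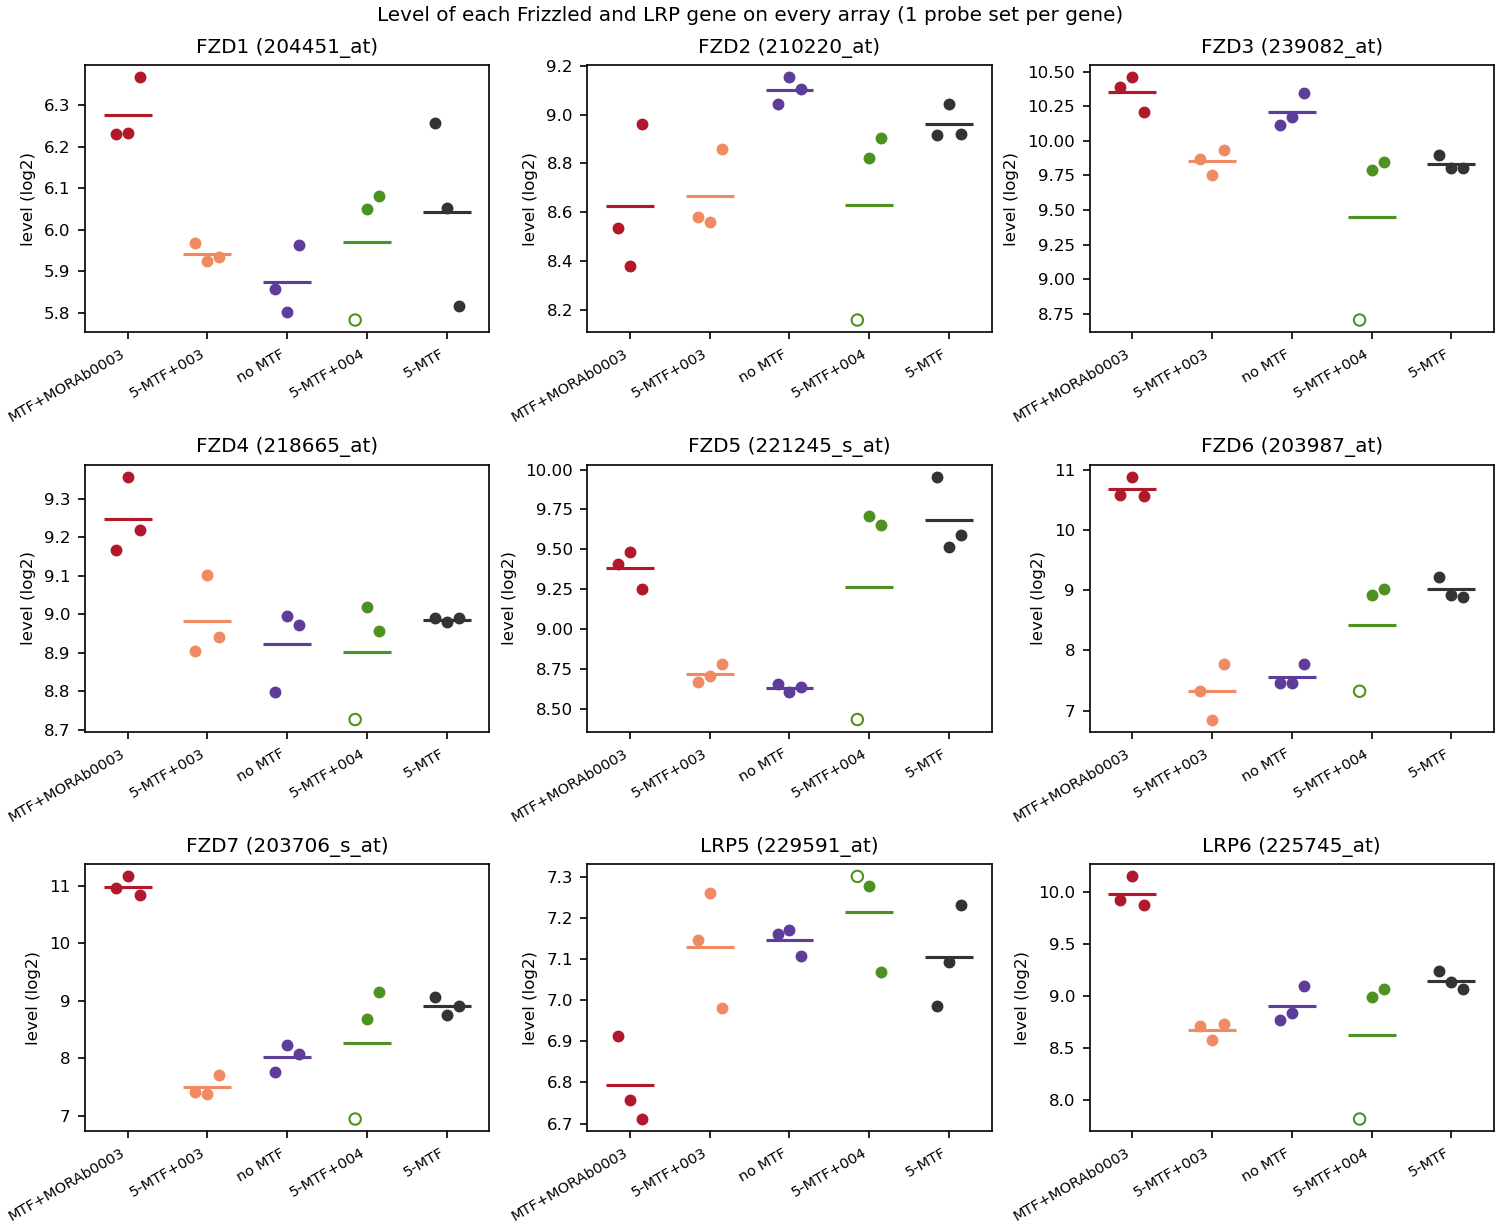
Log2 level (vertical axes) of the brightest probe set of each of the 9 receptor genes in the 5 extracts (horizontal axes). Points are the 3 arrays of an extract, bars are extract means, and the open circle is 5-MTF+004 replicate 1. FZD6 and FZD7 in MTF+MORAb0003 arrays lie above 10.5, higher than in any other array.

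FZD7 is a Frizzled receptor studied in epithelial progenitor cells and ovarian cancer, and its brightest probe set 203706_s_at had the widest spread of the family. FZD7 read 10.96, 11.16 and 10.84 in the MTF+MORAb0003 arrays, 7.42, 7.38 and 7.70 in the 5-MTF+003 arrays and 7.76, 8.23 and 8.08 in the no MTF arrays. It read 6.94, 8.68 and 9.16 in the 5-MTF+004 arrays and 9.07, 8.76 and 8.90 in the 5-MTF arrays. The MTF+MORAb0003 arrays stood above all others, the 5-MTF+003 arrays lay below the no MTF arrays without overlap, and the low 5-MTF+004 value is that of replicate 1. The FZD7 means were 10.99 ± 0.17 in MTF+MORAb0003, 7.50 ± 0.18 in 5-MTF+003, 8.02 ± 0.24 in no MTF, 8.26 ± 1.17 in 5-MTF+004 and 8.91 ± 0.16 in 5-MTF (SD, n = 3 arrays each). Without replicate 1 the 5-MTF+004 mean of FZD7 was 8.92, beside 8.91 in 5-MTF.

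The second FZD7 probe set, 203705_s_at, gave 9.99 on each of the 3 MTF+MORAb0003 arrays and 7.32, 6.95 and 7.53 on the 5-MTF+003 arrays. It gave 8.27, 8.21 and 8.24 on the no MTF arrays, 7.66, 8.03 and 8.26 on the 5-MTF+004 arrays and 8.62, 8.50 and 8.27 on the 5-MTF arrays. Again the MTF+MORAb0003 arrays were highest and the 5-MTF+003 arrays lowest, with no overlap with any other extract. Levels of the FZD7 probe sets correlated at r = 0.94 over the 15 arrays, a description of arrays that share extracts.

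FZD6, a receptor known from planar cell polarity and hair patterning in mice, is read by the single probe set 203987_at. FZD6 read 10.59, 10.89 and 10.57 in the MTF+MORAb0003 arrays, 7.32, 6.85 and 7.78 in the 5-MTF+003 arrays and 7.46, 7.46 and 7.78 in the no MTF arrays. It read 7.32, 8.91 and 9.02 in the 5-MTF+004 arrays and 9.23, 8.93 and 8.89 in the 5-MTF arrays. The MTF+MORAb0003 arrays were again apart from all others at the top, whereas 5-MTF+003 and no MTF arrays overlapped at the bottom, and only replicate 1 of 5-MTF+004 reached down to them. The FZD6 means were 10.68 ± 0.18 in MTF+MORAb0003, 7.32 ± 0.47 in 5-MTF+003, 7.57 ± 0.19 in no MTF, 8.42 ± 0.95 in 5-MTF+004 (8.96 without replicate 1) and 9.02 ± 0.18 in 5-MTF (SD, n = 3 arrays each).

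Between MTF+MORAb0003 and 5-MTF+003, the comparison that chose the family, the difference was 3.48 log2 units (11.2-fold) for FZD7 and 3.36 log2 units (10.3-fold) for FZD6, ranks 1 and 2 by size among 14369 genes. In this comparison 25.4% of all genes were called, and nothing is read from the receptors' place in it. The other receptors differed by 1.31 for LRP6, 0.66 for FZD5, 0.50 for FZD3, 0.26 for FZD4, -0.33 for LRP5 and -0.04 for FZD2. On the first array date, which held replicates 1 and 2, the FZD6 difference was 3.65, and on the second date, which held replicate 3, it was 2.78. For FZD7 the values were 3.66 on the first date and 3.13 on the second.

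Set against the folate-fed extracts, FZD7 in MTF+MORAb0003 was 2.07 ± 0.39 (SE) log2 units above 5-MTF (4.21-fold) and 2.73 ± 0.39 above 5-MTF+004 (2.07 without replicate 1). FZD6 in MTF+MORAb0003 was 1.66 ± 0.35 above 5-MTF (3.17-fold) and 2.26 ± 0.35 above 5-MTF+004 (1.72 without replicate 1). The 5-MTF+003 extract lay on the other side, with FZD6 at -1.70 ± 0.35 (3.24-fold lower) and FZD7 at -1.41 ± 0.39 (2.66-fold lower) relative to the same 5-MTF arrays. By size of difference from 5-MTF, FZD7 ranked 2 and FZD6 15 of 14369 genes in MTF+MORAb0003, and FZD6 ranked 1 and FZD7 5 in 5-MTF+003. High ranks in these extracts follow largely from the choice of FZD6 and FZD7, and nothing is read from them. Over the 29 other settings tried, the FZD6 difference of MTF+MORAb0003 from 5-MTF stayed between 1.52 and 1.82 and that of FZD7 between 1.80 and 2.17.

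The difference between no MTF and 5-MTF uses none of the arrays on which the choice rested, so all 8 receptor genes were tested in it, although the error of the fit was estimated on all 15 arrays, those included. FZD6 fell in no MTF cells relative to 5-MTF cells, with a difference of -1.45 ± 0.35 (SE, 2.73-fold lower, limma adjusted p = 0.0348), rank 3 of 14369 genes by size. Without 5-MTF+004 replicate 1 the same FZD6 difference had an adjusted p of 1.84e-05. The 3 no MTF arrays lay below the 3 5-MTF arrays for FZD6, with differences of -1.62 on the first array date and -1.11 on the second. The FZD6 call is nevertheless sensitive to the arrays in the fit: when each of the 15 arrays was left out in turn, it was kept in 5 cases, with adjusted p up to 0.174 in the others. FZD7 in no MTF cells differed from 5-MTF cells by -0.89 ± 0.39 (1.85-fold lower, adjusted p = 0.225), which did not pass with 15 arrays and passed with 14 (adjusted p = 0.000184). Its second probe set differed by only -0.22.

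**Figure D2:**
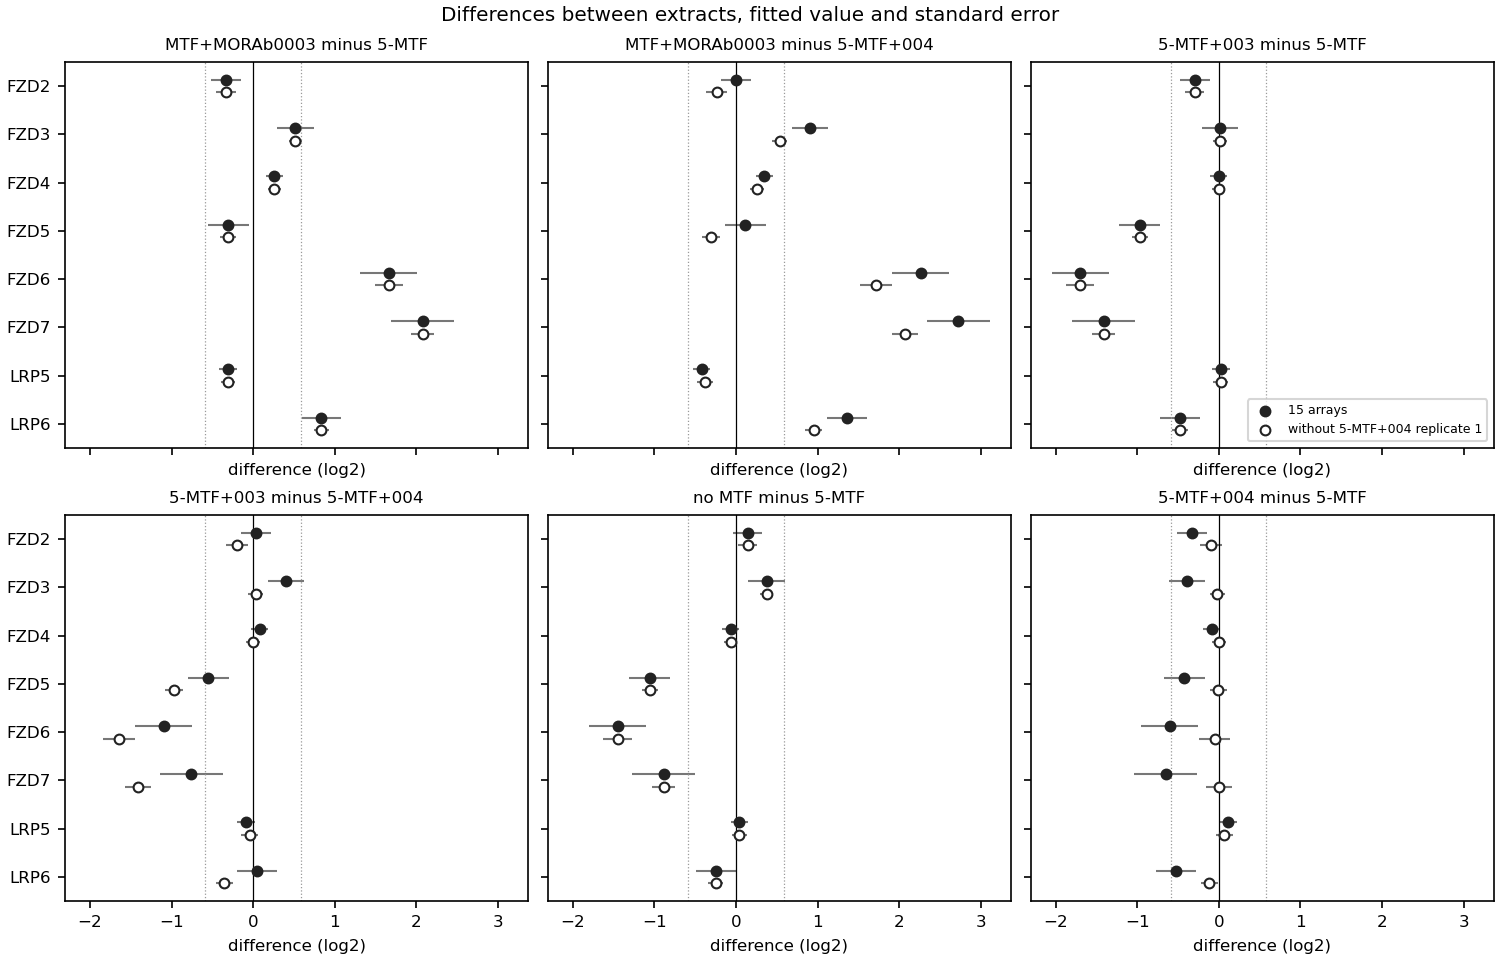
Differences in log2 level (horizontal axes) of the 8 tested receptor genes in 6 comparisons, each named in its panel title, with the extract named first minus the extract named second. Filled points use 15 arrays, open points leave out 5-MTF+004 replicate 1, lines are the SE of the fit and dotted lines mark 1.5-fold. FZD6 and FZD7 stand out to the right in the MTF+MORAb0003 panels (1.66 and 2.07 against 5-MTF), and FZD5 and FZD6 to the left in the no MTF panel.

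FZD5 binds Wnt7a and other Wnt proteins and is known for a role in Paneth cells and the eye in mice. Its brighter probe set 221245_s_at read 9.41, 9.48 and 9.25 in the MTF+MORAb0003 arrays, 8.67, 8.70 and 8.78 in the 5-MTF+003 arrays and 8.65, 8.61 and 8.64 in the no MTF arrays. In the 5-MTF+004 arrays FZD5 read 8.43, 9.71 and 9.65, and in the 5-MTF arrays 9.95, 9.51 and 9.59. The no MTF and 5-MTF+003 arrays were low and close together, the 5-MTF arrays were high, and apart from replicate 1 the 5-MTF+004 arrays overlapped them. FZD5 fell in no MTF cells relative to 5-MTF cells by 1.06 log2 units (SE 0.25, 2.08-fold lower, limma adjusted p = 0.0329 with 15 arrays and 2.44e-06 with 14), and the difference was -1.10 on the first array date and -0.96 on the second. In 5-MTF+003 cells FZD5 differed from 5-MTF cells by -0.97 ± 0.25 (1.96-fold lower), which missed the threshold with 15 arrays (adjusted p = 0.0532) and passed with 14 (adjusted p = 6.13e-06).

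The other FZD5 probe set, 206136_at, did not follow the brighter one in no MTF or 5-MTF+003. It read 6.94, 6.60 and 6.90 in the no MTF arrays, 6.83, 6.85 and 6.74 in the 5-MTF+003 arrays and 6.49, 7.00 and 6.76 in the 5-MTF arrays, so the extracts overlapped. In the MTF+MORAb0003 arrays it read 6.20, 6.20 and 6.37, below every 5-MTF array, a difference of -0.49. The brighter probe set was lower there too, by 0.31 (limma adjusted p = 0.457 with 15 arrays and 0.0188 with 14), under the 1.5-fold minimum. For 206136_at the difference from 5-MTF was 0.06 in no MTF and 0.06 in 5-MTF+003, and the FZD5 probe sets correlated at r = -0.53 over the 15 arrays. Averaged over both probe sets, FZD5 differed between no MTF and 5-MTF by -0.50, under the 1.5-fold minimum. The FZD5 call in no MTF was kept in 3 of the 15 fits that left out 1 array each, those without an array of 5-MTF+004, and its adjusted p otherwise ran up to 0.180.

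The stretch upstream of the FZD5 start is shown because FZD5 was called lower without folate, and beside it that of FZD4, which was called in no comparison. Of the 10 genes, 5 had a promoter entry in the RefSeq table used. Each window is the 250 bases before the start in GRCh38.p14, FZD5 at chr2:207769907-207770156 and FZD4 at chr11:86955396-86955645, both written 5′ to 3′ on the minus strand. Capitals mark GC boxes (GGGCGG) and CCAAT boxes (CCAAT) found on either strand, with overlapping matches run together.
FZD5: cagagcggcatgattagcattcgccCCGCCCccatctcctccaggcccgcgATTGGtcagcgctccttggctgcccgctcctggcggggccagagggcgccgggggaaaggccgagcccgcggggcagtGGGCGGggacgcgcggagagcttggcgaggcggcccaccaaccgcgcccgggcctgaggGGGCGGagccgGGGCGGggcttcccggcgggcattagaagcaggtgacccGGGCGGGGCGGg
FZD4: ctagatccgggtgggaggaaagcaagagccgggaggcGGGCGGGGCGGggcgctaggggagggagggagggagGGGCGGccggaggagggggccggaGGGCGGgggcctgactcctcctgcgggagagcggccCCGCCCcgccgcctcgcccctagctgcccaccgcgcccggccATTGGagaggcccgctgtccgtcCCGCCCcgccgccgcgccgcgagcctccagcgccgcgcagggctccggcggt
Both windows are rich in G and C, at 76.8% for FZD5 and 80.8% for FZD4. Each holds 6 GC boxes and 1 CCAAT box. Of 35116 promoter windows of that length, 42.6% held at least 1 GC box and 32% at least 1 CCAAT box. The core TCF/LEF motif ATCAAAG, present in 2.26% of windows, was found in neither window, which says only that these letters are not there.

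FZD3, a receptor required for axon tracts in mice, is read by 4 probe sets. Its brightest, 239082_at, read 10.39, 10.46 and 10.21 in the MTF+MORAb0003 arrays, 9.87, 9.76 and 9.93 in the 5-MTF+003 arrays and 10.12, 10.17 and 10.35 in the no MTF arrays. FZD3 read 8.70, 9.79 and 9.85 in the 5-MTF+004 arrays and 9.90, 9.80 and 9.81 in the 5-MTF arrays. MTF+MORAb0003 arrays were highest but overlapped with no MTF arrays, and replicate 1 of 5-MTF+004 was by far the lowest array. FZD3 rose in MTF+MORAb0003 relative to 5-MTF+004 by 0.91 ± 0.22 (SE, 1.87-fold, limma adjusted p = 0.00847), but without replicate 1 the difference was 0.53, under the 1.5-fold minimum (adjusted p = 0.000287). Relative to 5-MTF it was 0.52 ± 0.22 (1.43-fold, adjusted p = 0.148), so the FZD3 call rests on that 1 array.

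The dimmer FZD3 probe sets spread the extracts further apart. Probe set 219683_at read 8.17, 8.10 and 8.23 in the MTF+MORAb0003 arrays, 6.62, 6.59 and 6.56 in the 5-MTF+003 arrays, 6.46, 6.36 and 6.76 in the no MTF arrays and 7.41, 7.34 and 7.53 in the 5-MTF arrays. There the MTF+MORAb0003 arrays were above, and the 5-MTF+003 and no MTF arrays below, every 5-MTF array. Against 5-MTF its differences were 0.74 in MTF+MORAb0003, -0.83 in 5-MTF+003 and -0.90 in no MTF, and tested as a probe set of its own it was called in none of the 3 with 15 arrays (limma adjusted p = 0.0738 in MTF+MORAb0003, 0.0912 in 5-MTF+003 and 0.0588 in no MTF). With 14 arrays it was called in each (adjusted p = 1.15e-05 in MTF+MORAb0003, where 9.15% of all probe sets were called higher, 1.30e-05 in 5-MTF+003, where 5.94% were called lower, and 3.91e-06 in no MTF, where 5% were called lower). Probe set 227499_at differed by 0.94 in MTF+MORAb0003, -0.58 in 5-MTF+003 and -0.12 in no MTF, and 227524_at by 0.20 in MTF+MORAb0003, 0.04 in 5-MTF+003 and 0.09 in no MTF. All 4 FZD3 probe sets were thus higher in MTF+MORAb0003 than in 5-MTF, while in 5-MTF+003 and no MTF they split in sign.

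**Figure D3:**
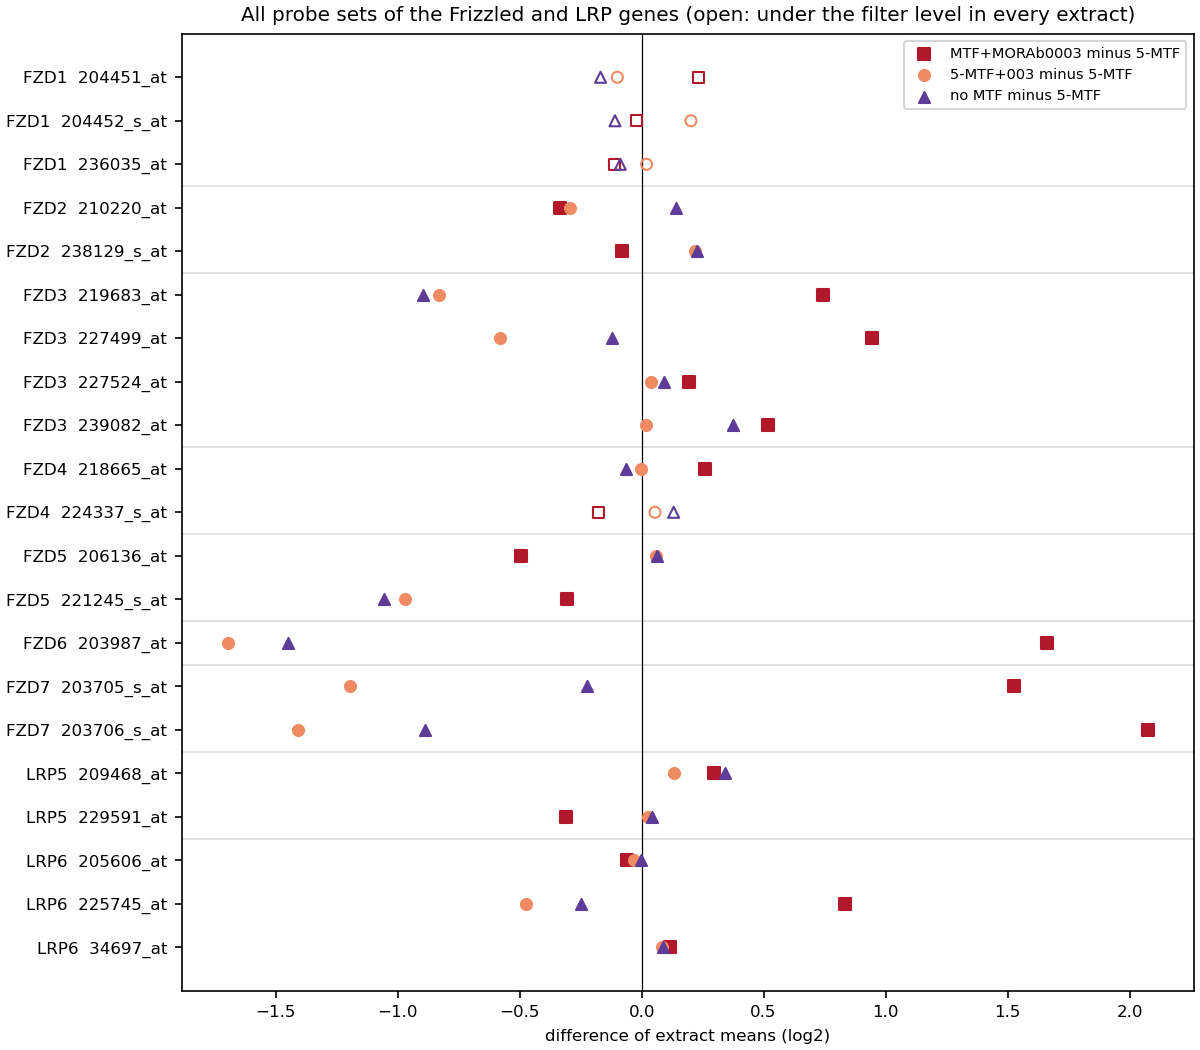
Difference in log2 level from 5-MTF (horizontal axis) for each of the 21 receptor probe sets (vertical axis) in MTF+MORAb0003, 5-MTF+003 and no MTF. Open points are probe sets under the filter level in every extract. Both FZD7 probe sets lie at 1.53 or above in MTF+MORAb0003, whereas 1 of 3 LRP6 probe sets lies at 0.84 there and the others near 0, and the dimmer FZD5 probe set lies at 0.06 in no MTF.

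FZD4, the receptor for Norrin in retinal vessels, varied little: its brighter probe set 218665_at read 9.17, 9.36 and 9.22 in the MTF+MORAb0003 arrays, against 8.73 to 9.10 over all other arrays. The MTF+MORAb0003 arrays were all above the rest. FZD4 differed between MTF+MORAb0003 and 5-MTF+004 by 0.35 (limma adjusted p = 0.0223), only 1.27-fold, and from 5-MTF by 0.26 (adjusted p = 0.126). With 14 arrays FZD4 had an adjusted p of 0.0251 against 5-MTF+004 and 0.0135 against 5-MTF, again under the 1.5-fold minimum. In no MTF and in 5-MTF+003 its difference from 5-MTF was -0.06 and -0.00. The second FZD4 probe set, under the filter level in every extract, correlated with the first at r = -0.65.

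FZD2, a receptor for Wnt5a and Wnt3a, read 8.53, 8.38 and 8.96 in the MTF+MORAb0003 arrays, 8.58, 8.56 and 8.86 in the 5-MTF+003 arrays and 9.04, 9.15 and 9.11 in the no MTF arrays. It read 8.16, 8.82 and 8.90 in the 5-MTF+004 arrays and 8.91, 9.04 and 8.92 in the 5-MTF arrays. The no MTF arrays were highest, just above 5-MTF without overlap, and the MTF+MORAb0003, 5-MTF+003 and 5-MTF+004 arrays overlapped one another. On this brighter probe set, 210220_at, FZD2 differences from 5-MTF were -0.33 in MTF+MORAb0003 (limma adjusted p = 0.255), -0.29 in 5-MTF+003 (adjusted p = 0.367) and 0.14 in no MTF (adjusted p = 0.789). With 14 arrays the adjusted p was 0.0315 in MTF+MORAb0003, 0.0629 in 5-MTF+003 and 0.417 in no MTF. All these differences were under the 1.5-fold minimum. The second FZD2 probe set, 238129_s_at, differed from 5-MTF by -0.08 in MTF+MORAb0003, 0.22 in 5-MTF+003 and 0.23 in no MTF. The FZD2 probe sets thus had opposite signs in 5-MTF+003, and they correlated at r = 0.11 over the 15 arrays. FZD1 stayed dim, with extract means of 6.28 in MTF+MORAb0003, 5.94 in 5-MTF+003, 5.87 in no MTF, 5.97 in 5-MTF+004 and 6.04 in 5-MTF, and was not tested.

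LRP6, the co-receptor whose phosphorylated tail recruits Axin, was, of the 6 receptor genes tested there, the one called in MTF+MORAb0003 against both 5-MTF+004 and 5-MTF. Its brightest probe set 225745_at read 9.92, 10.15 and 9.88 in the MTF+MORAb0003 arrays, 8.71, 8.58 and 8.74 in the 5-MTF+003 arrays and 8.77, 8.84 and 9.09 in the no MTF arrays. LRP6 read 7.82, 9.00 and 9.07 in the 5-MTF+004 arrays and 9.24, 9.14 and 9.07 in the 5-MTF arrays. MTF+MORAb0003 arrays were above every other array. The 5-MTF+003 arrays lay below the no MTF and 5-MTF arrays without overlap, and replicate 1 of 5-MTF+004 was the lowest array. LRP6 rose in MTF+MORAb0003 by 0.84 ± 0.24 (SE) relative to 5-MTF (limma adjusted p = 0.0406, and 5.13e-06 with 14 arrays) and by 1.36 ± 0.24 relative to 5-MTF+004 (adjusted p = 0.00164). Against 5-MTF+004 without replicate 1 the LRP6 difference was 0.95 ± 0.11 (1.94-fold, adjusted p = 5.49e-06).

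Against 5-MTF the LRP6 call was kept in 3 of the 15 fits that left out 1 array each, those without an array of 5-MTF+004, with adjusted p up to 0.153 in the others. Against 5-MTF+004 it was kept in all 15. The other LRP6 probe sets did not move with 225745_at: in MTF+MORAb0003 against 5-MTF, 205606_at differed by -0.06 and 34697_at by 0.12. Averaged over the 3 probe sets, LRP6 differed from 5-MTF by 0.30 and from 5-MTF+004 by 0.42, both under the 1.5-fold minimum. In 5-MTF+003 and no MTF, LRP6 on 225745_at differed from 5-MTF by -0.47 (limma adjusted p = 0.272) and -0.25 (adjusted p = 0.681). With 14 arrays the adjusted p was 0.00112 in 5-MTF+003 and 0.0566 in no MTF. Both differences were under the 1.5-fold minimum. Over the 3 probe sets the difference in 5-MTF+003 ran from -0.47 to 0.08.

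LRP5, the related co-receptor known for its part in bone mass, had a lower level in MTF+MORAb0003 arrays, at 6.91, 6.76 and 6.71, than in 5-MTF arrays, at 6.99, 7.09 and 7.23, on probe set 229591_at. The ranges did not overlap, but the difference of -0.31 ± 0.11 (SE) did not pass (limma adjusted p = 0.0811). Against 5-MTF+004 it was -0.42 (adjusted p = 0.0108), 1.34-fold lower and under the fold minimum. With 14 arrays the adjusted p was 0.0116 against 5-MTF and 0.0069 against 5-MTF+004, with both differences under the fold minimum. The second LRP5 probe set, 209468_at, differed in the opposite direction, by 0.30 against 5-MTF.

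Counted over the 6 receptor genes not used for the choice, 1 (LRP6) was called in MTF+MORAb0003 against 5-MTF, where 6.58% of all 14369 genes were called and 4.77% were called higher (8.23% higher with 14 arrays, LRP6 again the 1 receptor). Against 5-MTF+004 it was 2 of 6 (FZD3 and LRP6), where 19.9% of all genes were called and 17.6% were called higher. With 14 arrays it was 1 of 6 (LRP6), where 9.79% were called higher. In 5-MTF+003 none of the 6 was called against 5-MTF or against 5-MTF+004, where 2.02% and 3.47% of all genes were, and without 5-MTF+004 replicate 1 FZD5 was called lower in both (6.45% and 5.45% of all genes called lower). With 15 arrays FZD5 alone of the 6 had an unadjusted p under 0.05 in each of these comparisons, as did 3080 of all genes against 5-MTF and 3195 against 5-MTF+004. In no MTF against 5-MTF, 2 of 8 receptor genes were called, both lower (FZD5 and FZD6), against 2.71% of all genes called in either direction and 1.8% called lower; with 14 arrays it was 3 of 8 (FZD7 as well), against 5.09%. The median difference over the tested receptors in no MTF was -0.16, and over all genes 0.01.

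In 5-MTF+004 against 5-MTF limma called no receptor gene and none of all genes (0%), although 1276 genes had an unadjusted p under 0.05 (481 without replicate 1), LRP6 among them with 15 arrays. With replicate 1 the 8 tested receptors differed between 5-MTF+004 and 5-MTF by -0.65 (FZD7) to 0.11 (LRP5). Without replicate 1 the 8 differences lay between -0.12 and 0.07.

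Signal from the 3′ and 5′ ends of actin, a measure of RNA integrity and labelling, also differed between the extracts. The actin gap, 3′ minus 5′ log2 level, was 2.42 ± 0.13 in MTF+MORAb0003, 4.02 ± 0.10 in 5-MTF+003, 4.09 ± 0.16 in no MTF, 3.46 ± 0.31 in 5-MTF+004 and 3.24 ± 0.13 in 5-MTF (SD, n = 3 arrays each). The GAPDH gap was 1.21 ± 0.14 in MTF+MORAb0003, 2.49 ± 0.03 in 5-MTF+003, 2.37 ± 0.12 in no MTF, 2.05 ± 0.27 in 5-MTF+004 and 1.97 ± 0.05 in 5-MTF. On the brightest probe sets, the extract with the smallest gap was thus the one with the highest FZD6, FZD7 and LRP6. The extracts with the largest gaps had the lowest FZD5, FZD6 and FZD7 and, without 5-MTF+004 replicate 1, the lowest LRP6. FZD2 and FZD3 were ordered otherwise. In no MTF, with the largest actin gap, the FZD2 mean was the highest (9.10) and the FZD3 mean was 10.21, beside 9.84 in 5-MTF. The part of the gap in these differences was not tested.

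**Figure D4:**
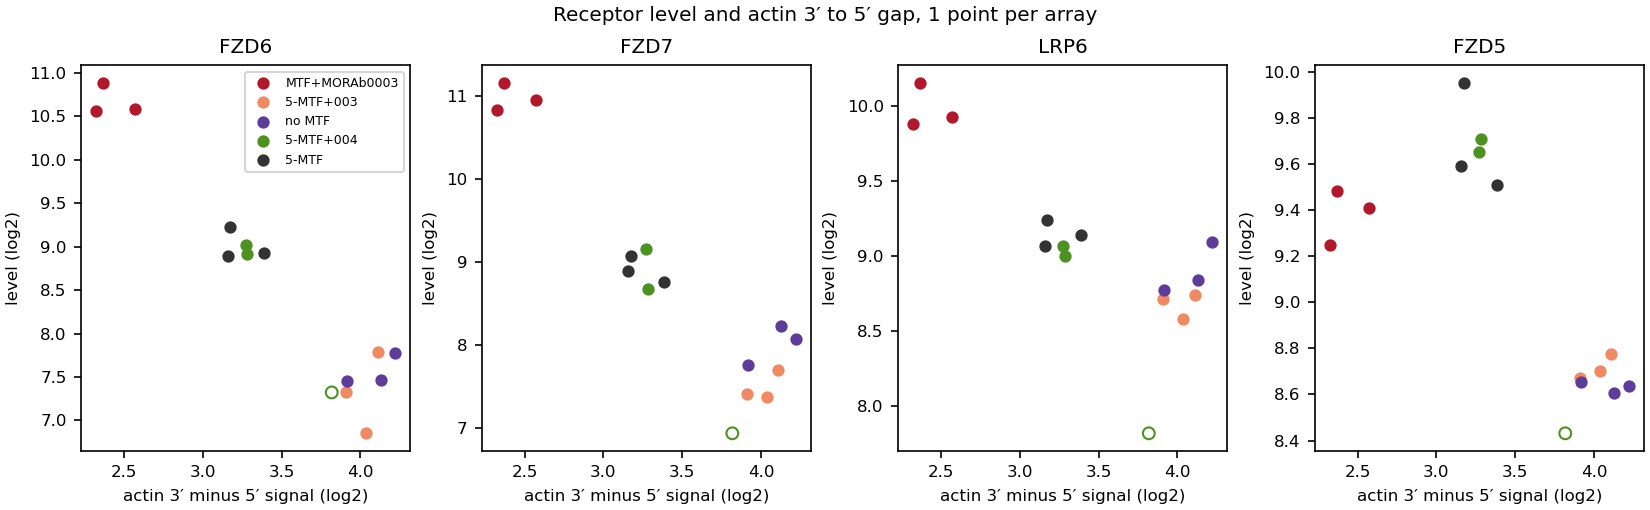
Log2 level of FZD6, FZD7, LRP6 and FZD5 (vertical axes) against the actin 3′ minus 5′ gap in log2 units (horizontal axes), 1 point per array, coloured by extract. MTF+MORAb0003 arrays have the smallest gap (mean 2.42) and the highest FZD6 and FZD7, and 5-MTF+003 and no MTF arrays share the largest gaps (means 4.02 and 4.09).

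Across the 15 arrays FZD6 and FZD7 ran together at r = 0.973, which placed FZD7 at rank 127 among the 14368 other genes by correlation with FZD6. LRP6 correlated with FZD7 at 0.950 and with FZD6 at 0.896, and LRP5 with LRP6 at -0.83. The arrays fall into 5 extracts, so these correlations mostly restate extract means and are descriptions over n = 15 arrays. FZD6 and FZD7 were also chosen for a large difference between extracts whose arrays are included here. Their high correlation with each other follows largely from that choice, and nothing is read from it or from the rank. The 5 genes most like FZD6 were CD46 (r = 0.994), CAPZA2 (0.992), KDELR3, TCTN3 and SCD5, and the 5 most like FZD7 were DNAJB9 (0.991), GALNT3, YPEL5, DEPTOR and PRRG4. Without 5-MTF+004 replicate 1 only 1 of the 5 genes was again among the 5 most like FZD6, and 2 of the 5 for FZD7.

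The rest of the Wnt pathway was read through 11 lists of genes. DKK1 and LGR5 reached the filter level in 1 extract alone and, once this was seen, were left out of the counts. In MTF+MORAb0003 against 5-MTF, where 4.77% of all genes were called higher and 1.81% lower, 1 of 16 tested cytoplasmic transducers and 1 of 12 canonical target genes rose, and no tested member of any of the 11 lists fell. The transducer was CTNNB1, which encodes β-catenin (0.72, limma adjusted p = 0.0211), and the target was MYC (0.79, adjusted p = 0.00621). DKK1, an inhibitor that blocks LRP5 and LRP6 and is also listed as a target, reached the filter level only in the MTF+MORAb0003 extract and so has no test here. It read 7.11, 6.85 and 6.56 in the MTF+MORAb0003 arrays, against 5.72 to 6.08 in all others. AXIN2, a feedback target used as a readout of β-catenin signalling, was not called, with means of 6.97 in MTF+MORAb0003 and 7.22 in 5-MTF. Over the 14 genes of the target list at the filter level, with DKK1 and LGR5 still included, the median difference was -0.14. Over all genes it was -0.04, and this median is a description only. With 14 arrays, LGR4 (0.74), RYK (0.70), TNKS (0.87), APC (0.62) and DKK3 (0.60) were called higher as well, where 8.23% of all genes were.

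Against 5-MTF+004, 17.6% of all genes were called higher in MTF+MORAb0003 and 2.32% lower. There 2 of 6 genes of R-spondin and receptor turnover rose, LGR4, an R-spondin receptor, by 1.28 (limma adjusted p = 0.00260) and ZNRF3 by 0.96 (adjusted p = 0.0224). Also higher were RYK, an alternative Wnt receptor, by 1.11, 1 of 7 inhibitors (DKK3), 4 of 16 transducers with TNKS first at 1.42, 2 of 11 nuclear effectors (EP300 and CREBBP), 4 of 12 targets and 2 of 14 polarity genes, while of 11 tested Wnt ligands WNT7A rose by 0.88 and WNT7B fell by 0.71. Without 5-MTF+004 replicate 1, where 9.79% of all genes were called higher, the counts were 1 of 6 genes of receptor turnover, 1 of 7 inhibitors, 3 of 16 transducers, 2 of 11 nuclear effectors, 1 of 12 targets and 0 of 14 polarity genes. LGR4 differed by 0.87 and was called, as were RYK (0.76) and WNT7B (-0.71), while ZNRF3 and WNT7A were no longer called.

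In 5-MTF+003 against 5-MTF, where 0.431% of all genes were called higher and 1.59% lower, WLS, the carrier that brings Wnt proteins to the surface, fell by 1.00 (limma adjusted p = 0.0234), RHOA fell by 0.60 and WNT7B rose by 0.66 (adjusted p = 0.0161). Against 5-MTF+004, where 3.07% of all genes were called higher and 0.397% lower, WLS fell by 0.75 (adjusted p = 0.0477), and DVL1 (0.99), SCRIB (0.86) and BCL9L (0.61) rose. Without 5-MTF+004 replicate 1, 0.793% of all genes were called higher and 5.45% lower in that comparison. There WLS (-1.05) and DVL1 (0.70) were called and SCRIB and BCL9L were not. Also called lower there were 1 of 6 genes of receptor turnover, 1 of 7 inhibitors and 1 of 14 polarity genes. With 14 arrays, LGR4 (-0.76), RYK (-0.59), CTNNB1 (-0.69) and DKK3 (-0.81) were also called lower in 5-MTF+003 than in 5-MTF, where 6.45% of all genes were. In no MTF against 5-MTF, where 1.8% of all genes were called lower, MYC fell by 0.62 (adjusted p = 0.0392) and RHOA, a small GTPase downstream in polarity signalling, by 0.60 (adjusted p = 0.0323), 1 of 12 targets and 1 of 14 polarity genes. With 14 arrays CTNNB1 (-0.62), DVL3 (-0.59) and DKK3 (-0.73) were called lower as well, where 5.09% of all genes were, and PRICKLE1 (0.61) was called higher, where 1.33% were. Neither FZD9 nor SMO, the tested relatives of the same receptor class, was called in any of the 6 comparisons with 15 arrays, nor was either of the 2 tested genes of receptor maturation.

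**Figure D5:**
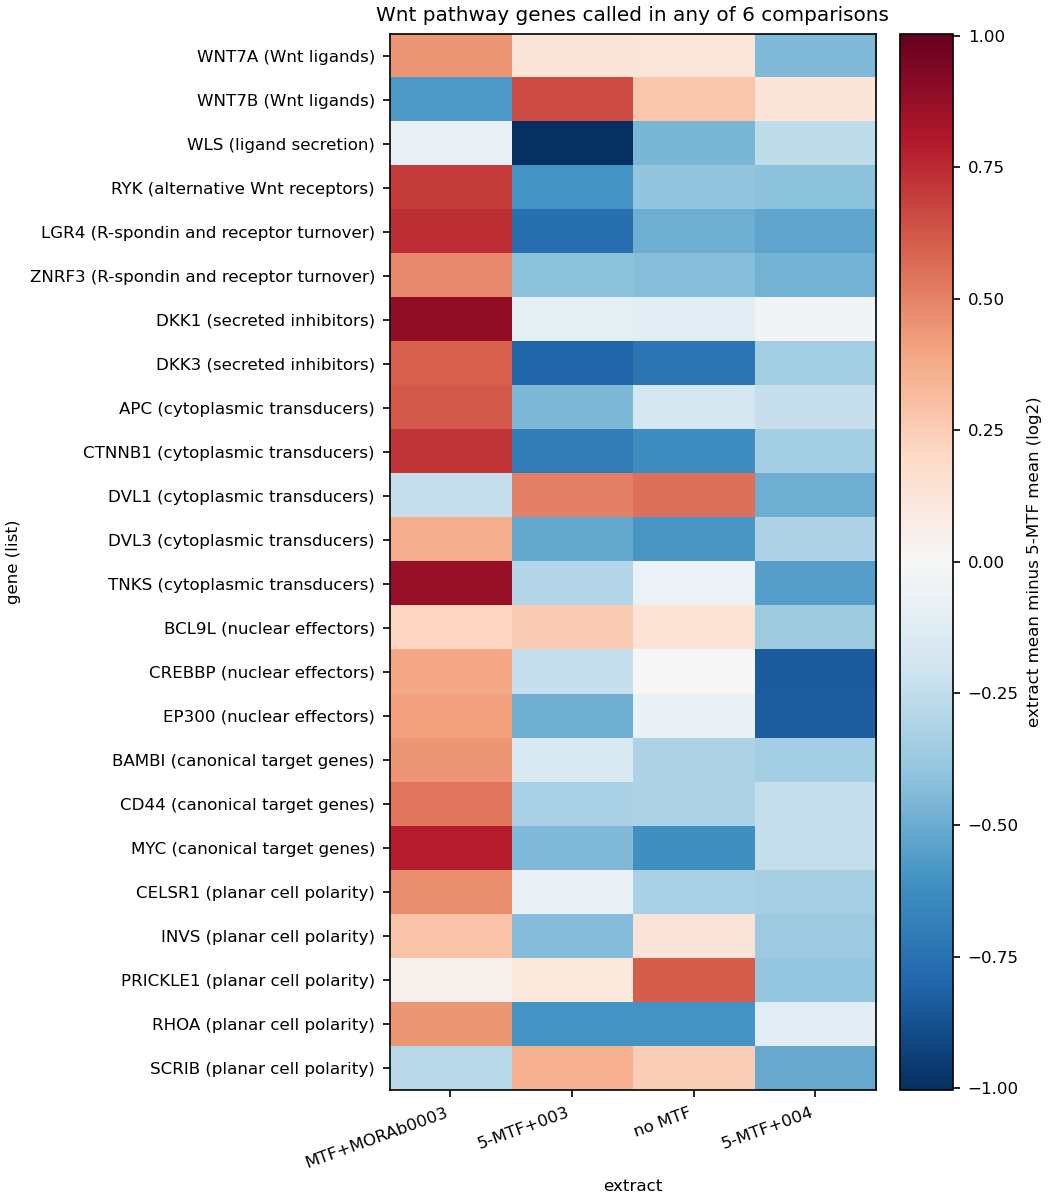
Colour shows the extract mean minus the 5-MTF mean in log2 units for the 24 genes of the Wnt lists that passed the test in any of the 6 comparisons with 15 or 14 arrays (DKK1, shown too, had to differ because it reached the filter level in MTF+MORAb0003 alone), by list (down the page), in MTF+MORAb0003, 5-MTF+003, no MTF and 5-MTF+004 (columns). The 5-MTF+004 column includes replicate 1, and the largest absolute difference is 1.00, that of WLS in 5-MTF+003.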

How the data were processed

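Per the labels' protocols, Trizol was used to isolate total RNA, and biotinylated cRNA was made as in Affymetrix's standard protocol. The deposited table holds log2 expression per probe set. How they were summarised and normalized is not given in the sources used here. Deposited values were used without further normalization, and array medians lay between 6.53 and 6.67. Array dates come from the labels, and each date held all 5 conditions.

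Of 54675 probe sets, 62 controls were left out, 41091 carried 1 symbol, 1801 several and 11721 none. Old symbols were replaced by way of Entrez identifiers, of which 41037 matched a RefSeq gene table. Differences were fitted in R 4.3.3 by limma 3.58.1 (lmFit, then eBayes) as 5 group means over 15 arrays (10 residual degrees of freedom) or 14 arrays (9). Single probe sets were tested in the same way over 30127 probe sets. Figures used matplotlib 3.10.9. The fit was tested on simulated data. The number of arrays limits the precision.

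All 10 receptor genes were named, with up to 4 called genes per list and comparison, and the 5 genes most correlated with FZD6 and with FZD7. The members and lists were chosen with earlier results of these data known. Alternatives were quantile normalization, other filters, the mean of all probe sets, other fold minimums, blocks for replicate number and array date, the first date only, only the 6 arrays compared, a trended prior, and fits without each array or replicate number.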

Additional observations from a re-analysis of the deposited data

How the results depend on the processing

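No difference that was called changed sign in any of the 29 other settings. Among 1617 pairs of a difference and a setting, called or not, the sign changed in 52, all without a call. Over the fits without 1 array or 1 replicate number, receptors called ranged from 0 to 1 (MTF+MORAb0003 against 5-MTF), 1 to 2 (MTF+MORAb0003 against 5-MTF+004), 0 to 1 (5-MTF+003 against 5-MTF, and against 5-MTF+004) and 0 to 3 (no MTF against 5-MTF). In the same order, genes called ranged from 2 to 1743, 673 to 4345, 0 to 1032, 0 to 1175 and 0 to 922, and for MTF+MORAb0003 against 5-MTF+003 from 1367 to 3869. With 15 arrays the counts were 945, 2862, 290, 498, 389 and 3652.

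Quantile normalization gave 627 genes in 5-MTF+003 against 5-MTF (204 higher and 423 lower, against 62 and 228 as deposited) and 643 in no MTF (258 and 385, against 130 and 259), and called 1 receptor, FZD5, in 5-MTF+003 against each control. The filter at the 75th percentile called 1 receptor in 5-MTF+003 against 5-MTF. The mean of all probe sets gave 551, 1886, 172, 299 and 192 genes in the order above, and called 0 receptors in MTF+MORAb0003 against 5-MTF, 1 against 5-MTF+004 and 1 in no MTF. With no fold minimum the counts were 1600, 5046, 441, 857 and, for MTF+MORAb0003 against 5-MTF+003, 6412, with 4 receptors against 5-MTF+004; with a 2-fold minimum they were 240, 1121, 58, 31, 64 and 1430, with 0 receptors against 5-MTF and 1 against 5-MTF+004. The first array date alone gave 22 genes in MTF+MORAb0003 against 5-MTF, 0 in 5-MTF+003 against either control and 0 in no MTF, with 0 receptors called in MTF+MORAb0003 against 5-MTF and 0 in no MTF. Fits of only the 6 arrays compared gave 1465 genes in MTF+MORAb0003 against 5-MTF, 25 against 5-MTF+004, 1029 in 5-MTF+003 against 5-MTF, 0 against 5-MTF+004 and 919 in no MTF, with 0 receptors called in MTF+MORAb0003 against 5-MTF+004 and 1 in 5-MTF+003 against 5-MTF.

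With the replicate number as a block, FZD5 in no MTF no longer passed (-1.06, adjusted p = 0.0515), which left 1 receptor. The numbers gave no sign of pairing: 8 of 30 same-numbered pairs correlated above 0.1, and 5 of 15 arrays correlated best with their own number. The block changed no other receptor call. The precision is that of 3 arrays of 1 extract per condition, and FZD1, under the filter level in every extract, was not tested.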
